A study of Mus musculus with 17 samples.

Results

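Brimonidine plus noise was compared with noise alone in bulk RNA sequencing of mouse cochleae, 7 libraries against 7, out of 17 libraries in the series. The members of the comparison were fixed by the sample labels, and 15707 of the 35285 genes in the file were tested between them, a gene entering when 3 or more of the 14 libraries held 1 FPKM or more (fragments scaled by exon length and by the fragments of the library). Both groups were wild-type male C57BL/6J mice, 8 weeks old, that had spent 2 h in noise of 8 to 16 kHz at 100 dB, and their cochleae were taken on day 2 after it. The NE group had noise exposure alone. The brimonidine group had in addition 3 intraperitoneal injections of brimonidine at 1 mg/kg, on the day before the noise, the day of the noise and the day after it. The methods give saline injections to the unexposed control group and name none for the NE group, so the drug and the injections cannot be told apart here. They also place hearing tests before the animals were killed, under ketamine and xylazine, and xylazine is itself an agonist of the α2-adrenergic receptor. The 3 control libraries entered no test except an alternative fit of all 17 libraries in 1 model. Their values are given beside some of the named genes.

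Brimonidine activates α2-adrenergic receptors, which act through the inhibitory G protein Gi to lower cAMP. In nerve endings such receptors restrain transmitter release, and the inner hair cell signals to the spiral ganglion neuron with glutamate, which damages the nerve ending when noise releases too much of it. Noise also brings leukocytes and inflammatory signals such as interleukin 1β into the cochlea. The cochlea holds a circadian clock as well, in which the activators BMAL1 (Arntl), CLOCK and NPAS2 bind E-boxes and switch on Per, Cry, Nr1d and Dbp-family genes, whose products in turn repress the activators or act through D-boxes.

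The libraries held cochlear tissue together with bone and marrow. The cochlear gene Coch lay between 468 and 763 FPKM over the 14 libraries and the connexin gene Gjb2 between 53.6 and 84.7. The hair cell genes Myo7a and Otof lay between 4.55 and 6.21 and between 2.34 and 3.22, while Slc26a5, the motor protein gene of outer hair cells, stayed under 1 FPKM in every library. The neutrophil gene S100a9 lay between 16574 and 30213 FPKM, the bone collagen gene Col1a1 between 126 and 488, and the haemoglobin gene Hba-a1 between 771 and 2063. The labels call the cells interstitial, and no list of markers was fixed for such cells. In bulk tissue, fewer cells of a type and less RNA per cell cannot be told apart, which holds for every value that follows.

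Depth was even, from 15769234 to 18288854 fragments counted in the NE libraries and from 16624436 to 18224925 in the brimonidine libraries. NE 6 and brimonidine 3 stood apart, at 38.5 and 21.8 on the first principal component of log2(FPKM + 1), which held 19.1% of the variance, against -9.75 to 5.47 for the other 12 libraries. Ccl3, Cxcl2, Ccl4, Il1b and Cxcl1 were among the genes with the largest positive loadings on it. Brimonidine 5 was the highest of the 14 libraries for the cerebellar genes Gabra6 (8.81 FPKM), Neurod1 (3.92), Cbln1 (10.0) and Cbln3 (11.8), whose medians over the 14 libraries were 0.203, 0.122, 1.17 and 0.362. All 3 control libraries were far higher for the same genes, with Gabra6 at 31.5, 93.4 and 36.9 FPKM, and control 2 was low for marrow genes such as Ltf (591 FPKM, against 2359 and 2091 in the other controls). For inflammatory and clock genes at their group's highest or lowest value in NE 6, values without that library are given too.

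Across the transcriptome the groups lay close together. No gene passed an adjusted p of 0.05 together with a 2-fold change (0 of 15707, 0%; limma on log2(FPKM + 1), Benjamini-Hochberg over all genes tested), and 1 gene, Olfm4, passed the adjusted threshold alone (0.00637%). At an unadjusted p under 0.05, called the unadjusted threshold below, 519 genes were higher (3.30%) and 387 lower (2.46%) in the brimonidine group, 5.77% in all. Scaling by the median ratio turned the balance, with 344 higher and 499 lower, and all 17 libraries in 1 model gave 257 and 198. Of the genes tested, 670 held 1 FPKM in 3 or more libraries of one group but not of the other, and without them, a step chosen after the values were seen, 3.23% were higher and 2.34% lower. By other tools and settings, limma-voom on the recovered fragments gave 0 of 14927 genes past the adjusted threshold with 472 higher and 372 lower at the unadjusted one, but Olfm4 had no recovered fragments and was not among the genes it tested, and array weights gave 4 and 1 past both. The 95% interval of the log2 fold change of FPKM + 1 lay inside a 2-fold change either way for 97.5% of the genes tested. It lay inside 0.5 on the log2 scale for 88.8%. With 0.1 added to FPKM in place of 1, it lay inside a 2-fold change for 14590 of 15707 genes, and with voom for 13730 of 14927. Of the 16 genes with a 2-fold change of FPKM + 1 at the unadjusted threshold, 15 were immunoglobulin variable genes. Of these 15, 13 were lower and 2 higher, and the other gene was Il1b, which was lower. This scale understates low genes, and the ratio of mean FPKM, brimonidine over NE, was 2.09 for Dbp and 0.464 for Sprr2a3, among others.

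**Figure D1:**
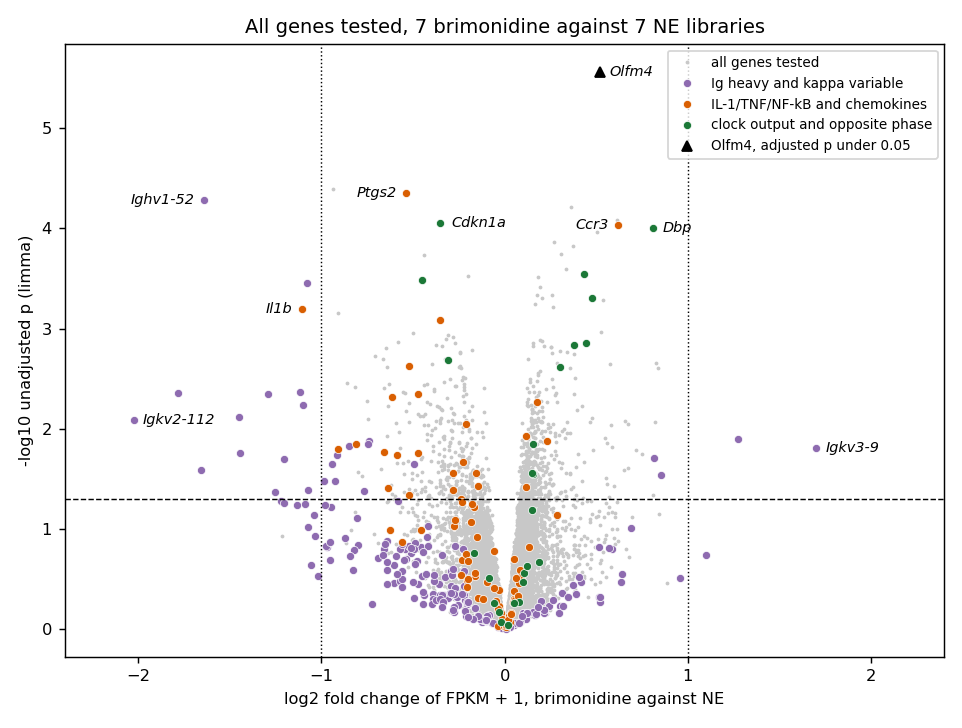
Each point is a gene tested between 7 brimonidine and 7 NE libraries, with the log2 fold change of FPKM + 1 on the x axis (brimonidine against NE) and −log10 of the unadjusted limma p on the y axis. The dashed line marks the unadjusted threshold and the dotted lines a 2-fold change, and beyond the dotted lines and above the dashed one lie 15 immunoglobulin variable genes and Il1b.

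Olfm4 encodes olfactomedin 4, a protein stored in the specific granules of a subset of neutrophils, and lies on chromosome 14 from 80000302 to 80021930 (plus strand). In the NE group its lowest, median and highest values were 26.1, 29.7 and 32.3 FPKM, and in the brimonidine group they were 33.4, 44.8 and 47.5. The groups did not overlap, and the lowest brimonidine library was brimonidine 3. Controls 1, 2 and 3 had 32.6, 18.7 and 30.6 FPKM. Olfm4 rose with a log2 fold change of 0.52 (95% interval 0.37 to 0.67, standard error 0.07, adjusted p = 0.0430, limma), and its exact two-sided permutation p was 0.000583, the lowest that 7 against 7 allows. The adjusted p was 0.000488 without brimonidine 3 and lay between 0.0629 and 0.169 when any other single library was left out, so the call did not survive the loss of any of those 13. With all libraries it was also above 0.05 when totals were made equal (0.0956), after scaling by the median ratio (0.0519) or quantile normalization (0.106), with no filter on low values (0.119), with the replicate number as a block (0.242) and with all 17 libraries in 1 model (0.479).

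Few other genes of the specific granule passed the unadjusted threshold. Of 33 such genes tested, 3 were higher at the unadjusted threshold (Olfm4, Mmp8 and Chil3) and 1 was lower (Slpi), shares of 9.09% and 3.03% against 3.30% and 2.46% of all genes tested, with a median log2 fold change of 0.02 against 0.01. Mmp8, a neutrophil collagenase, ranged from 293 to 407 FPKM under noise alone (median 368) and from 382 to 517 with brimonidine (median 472). Chil3, a chitinase-like protein of developing neutrophils and macrophages, ranged from 1253 to 1848 under noise alone (median 1521) and from 1705 to 2303 with brimonidine (median 1948), at a log2 fold change of 0.35 (limma adjusted p = 0.521; exact permutation p = 0.00175). For both genes the groups overlapped, and the median brimonidine library lay above every NE library. Slpi, a protease inhibitor, ranged from 141 to 406 under noise alone (median 262) and from 128 to 210 with brimonidine (median 149), at a log2 fold change of -0.64 (limma adjusted p = 0.633; exact permutation p = 0.0152). The log2 fold changes of the abundant granule genes Ltf, Camp, Ngp, S100a8 and S100a9 were -0.11, 0.04, -0.01, -0.01 and -0.03. Without NE 6, 6 of the 33 were higher in place of 3. None of the 13 genes of the azurophil granule tested passed in either direction with all libraries, and 3 were higher without NE 6.

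The clock genes gave the largest share of genes higher in the brimonidine group among the lists examined. Of 16 output genes tested, 8 were higher at the unadjusted threshold (50.0%) and 0 lower, where 3.30% of all genes tested were higher, and 14 of the 16 had a log2 fold change above 0, with a median of 0.15. None had an adjusted p under 0.05 (limma). The 8 were Dbp, Per3, Tef, Per2, Nr1d2, Ciart, Wee1 and Cry2. With each library left out in turn between 6 and 9 of the 16 were higher, and without both NE 6 and brimonidine 3 there were 8. NE 6 was the lowest NE library for 6 of the 8 genes and brimonidine 3 the lowest brimonidine library for 6, and with all 17 libraries in 1 model 6 of the 16 were higher.

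The starts of these genes are shown because the letters that clock factors bind are known. The sequences are the bases before the RefSeq start (build GRCm38.p6, up to 250, ending where a GENCODE M21 exon begins), 5′ to 3′ on the gene's strand, with capitals for an E-box (CACGTG) or a D-box (TTATGTAA or TTACGTAA), each searched on both strands. Tef (chr15:81811164-81811413, plus strand, 1 E-box, before the second of its RefSeq starts) and Ciart (chr3:95882252-95882478, minus strand, 3 E-boxes) are output genes with an E-box. Per3 (chr4:151044666-151044915, minus strand) holds 2 D-boxes. Olfm4 (chr14:80000052-80000250, plus strand, 1 D-box) is the gene with the adjusted call.
Tef: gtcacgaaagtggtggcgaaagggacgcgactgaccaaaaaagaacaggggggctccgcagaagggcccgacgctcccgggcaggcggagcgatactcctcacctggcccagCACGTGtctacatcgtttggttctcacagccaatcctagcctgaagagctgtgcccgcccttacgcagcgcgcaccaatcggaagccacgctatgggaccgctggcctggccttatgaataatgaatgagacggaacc
Ciart: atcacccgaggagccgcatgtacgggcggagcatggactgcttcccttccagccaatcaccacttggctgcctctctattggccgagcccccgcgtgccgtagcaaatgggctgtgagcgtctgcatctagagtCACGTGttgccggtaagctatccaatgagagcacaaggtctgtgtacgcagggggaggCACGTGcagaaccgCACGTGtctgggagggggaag
Per3: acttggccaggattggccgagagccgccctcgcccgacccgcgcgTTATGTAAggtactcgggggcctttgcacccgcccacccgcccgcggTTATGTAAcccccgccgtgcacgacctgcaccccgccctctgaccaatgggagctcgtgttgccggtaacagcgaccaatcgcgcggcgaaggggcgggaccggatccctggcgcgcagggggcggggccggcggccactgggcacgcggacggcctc
Olfm4: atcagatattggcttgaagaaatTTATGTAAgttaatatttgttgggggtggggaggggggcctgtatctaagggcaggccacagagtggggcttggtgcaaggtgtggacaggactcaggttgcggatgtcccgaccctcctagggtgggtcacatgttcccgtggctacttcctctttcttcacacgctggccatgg
Of the 16 output genes, 13 were matched to a promoter by symbol, and 4 of the 13 held an E-box in the 250 bases before a start (Bhlhe41, Ciart, Per1 and Tef), where 6.86% of the 27025 genes in the RefSeq table do. Per3 alone of the 13 held a D-box, and 1.10% of the genes in the table hold one. These matches are descriptions of the letters, and Bhlhe41 and Per1, which hold an E-box, had log2 fold changes of 0.05 and 0.02.

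Dbp and Tef, whose proteins act at D-boxes, had the largest log2 fold changes of the list. Dbp ranged from 1.68 to 3.34 FPKM under noise alone (median 2.70) and from 3.08 to 8.46 with brimonidine (median 5.54), and controls 1, 2 and 3 had 5.04, 4.03 and 5.05. Only brimonidine 3, at 3.08, lay within the range of the NE libraries. Its log2 fold change was 0.81 (95% interval 0.48 to 1.14, adjusted p = 0.172, limma; exact permutation p = 0.00117), and the adjusted p was 0.0426 without brimonidine 3 and 0.0394 with array weights. Tef, its relative, ranged from 6.22 in NE 6 to 10.3 in the NE group (median 8.65) and from 8.87 in brimonidine 3 to 15.4 in the brimonidine group (median 12.7), and controls 1, 2 and 3 had 14.6, 25.4 and 15.4. Its log2 fold change was 0.48 (95% interval 0.25 to 0.71, adjusted p = 0.300, limma; exact permutation p = 0.00233). Without NE 6 the log2 fold changes of Dbp and Tef were 0.83 and 0.41. The third relative, Hlf, had a log2 fold change of 0.15 and did not pass.

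The repressor genes came next in size. Per3 ranged from 3.10 to 4.86 FPKM under noise alone (median 4.13) and from 4.24 to 7.08 with brimonidine (median 6.01), at a log2 fold change of 0.43 (limma adjusted p = 0.262; exact permutation p = 0.00175). Per2 ranged from 2.59 to 5.10 (median 4.36) and from 4.74 to 7.08 (median 5.79), at a log2 fold change of 0.44 (limma adjusted p = 0.485; exact permutation p = 0.00233). In both Per genes the median brimonidine library lay above every NE library. Nr1d2, which encodes the repressor REV-ERBβ, ranged from 8.03 to 10.8 under noise alone and from 8.90 to 15.1 with brimonidine, at a log2 fold change of 0.38 (exact permutation p = 0.00583). Ciart, a repressor of CLOCK and BMAL1, ranged from 1.29 to 1.67 and from 1.43 to 2.50, at a log2 fold change of 0.30 (exact permutation p = 0.00524). Cry2 and the kinase gene Wee1 had log2 fold changes of 0.15 each. Without NE 6, the lowest NE library for Per2, Per3, Nr1d2, Cry2 and Wee1, those 5 were 0.36, 0.38, 0.34, 0.11 and 0.11, and Cry2 and Wee1 no longer passed. Without both NE 6 and brimonidine 3 the log2 fold changes of Tef, Per2, Per3 and Nr1d2 were 0.48, 0.41, 0.45 and 0.42. Per1 at 0.02 and Nr1d1 at 0.19 did not pass, nor did Bhlhe40 at -0.02.

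On the opposite side of the clock, 3 of 9 genes tested were lower at the unadjusted threshold (33.3%, against 2.46% of all genes tested) and 1 was higher (11.1%, against 3.30%). Npas2, an activator that pairs with BMAL1, ranged from 0.856 to 1.98 FPKM under noise alone (median 1.64) and from 0.672 to 1.14 with brimonidine (median 0.771), at a log2 fold change of -0.45. Only brimonidine 5 reached 1 FPKM in its group, so Npas2 entered the test only through the group in which it was high, and of the other 8 genes 2 were lower (25%, against 2.34%). Arntl ranged from 1.85 to 2.41 (median 1.98) and from 1.12 to 2.09 (median 1.52), at a log2 fold change of -0.31 (limma adjusted p = 0.518; exact permutation p = 0.0035). Without NE 6, the lowest NE library for Arntl, the log2 fold change was -0.33. The activator Clock itself had a log2 fold change of -0.06 and did not pass. Cry1, a repressor that peaks later than the Per genes, was higher, at a log2 fold change of 0.16 (exact permutation p = 0.0163). The remaining lower gene, Cdkn1a, encodes the cell cycle inhibitor p21, which also answers to p53 and to glucocorticoids. It ranged from 26.9 to 29.9 FPKM under noise alone (median 27.9) and from 18.1 to 25.7 with brimonidine (median 22.6), and the groups did not overlap (log2 fold change -0.35, 95% interval -0.49 to -0.21, adjusted p = 0.172, limma; exact permutation p = 0.000583). The number of lower genes, Npas2 included, stayed at 3 with any single library left out. The hour at which each cochlea was taken is not given in the sources used here.

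**Figure D2:**
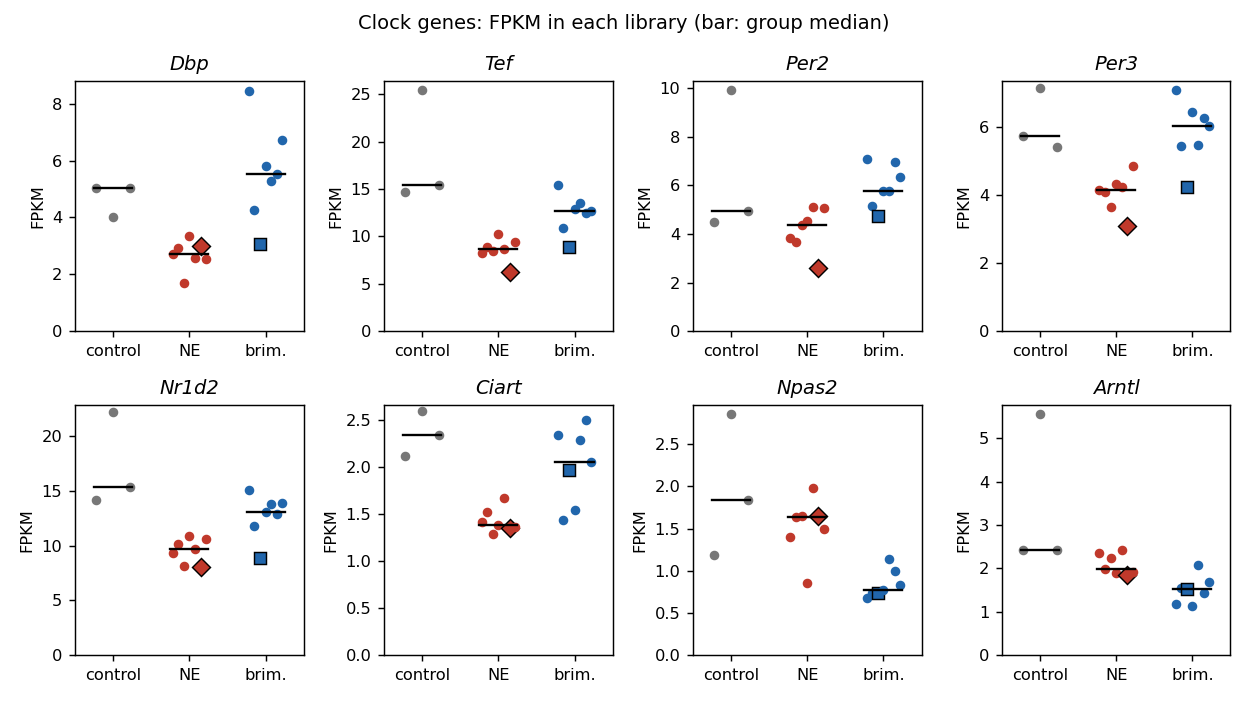
FPKM of 8 clock genes in each library of the control, NE and brimonidine groups, with a bar at the group median, a diamond for NE 6 and a square for brimonidine 3. Brimonidine 3 is the lowest brimonidine library for Dbp (3.08 FPKM) and Tef (8.87 FPKM), and for Npas2 and Arntl the brimonidine medians (0.771 and 1.52) lie below the NE medians (1.64 and 1.98).

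Several inflammatory genes were lower in the brimonidine group at the unadjusted threshold. Of 43 genes of interleukin 1, TNF and NF-κB signaling tested, 10 were lower at the unadjusted threshold (23.3%, against 2.46%). Higher were 2 (4.65%, against 3.30%), and the median log2 fold change was -0.06. Of 38 chemokine and chemokine receptor genes, 9 were lower (23.7%) and 3 higher (Ccr3, Cxcl12 and Ccr2, 7.89%, against 3.30%). Their median was -0.16, and with single libraries left out it ran from -0.19 without NE 6 to -0.08 without NE 2. Cxcl12 had a log2 fold change of 0.23. No gene of either list had an adjusted p under 0.05. With single libraries left out the lower counts ran from 7 to 14 and from 6 to 12, and without NE 6 they were 8 in each list. The number of higher genes in the interleukin 1 list was 1 without NE 2, 5 or 6 or brimonidine 1, 3, 6 or 7. With all 17 libraries in 1 model, 3 of the 43 were lower and 0 higher, and 5 of the 38 were lower and 2 higher.

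Among the cytokines, Il1b ranged from 56.4 to 197 FPKM under noise alone (median 73.3, highest in NE 6) and from 24.3 to 58.1 with brimonidine (median 39.1, highest in brimonidine 3). Only brimonidine 3 lay above the lowest NE library. The 3 controls had 33.8, 19.4 and 183 FPKM. The log2 fold change was -1.11 (95% interval -1.65 to -0.56, adjusted p = 0.334, limma; exact permutation p = 0.00117) and -0.91 without NE 6. Il1a, the other interleukin 1 gene, ranged from 7.56 to 15.2 under noise alone (median 12.1) and from 4.99 to 11.4 with brimonidine (median 5.78), at a log2 fold change of -0.62 (exact permutation p = 0.0175). Their receptor gene Il1r1 had a log2 fold change of -0.21.

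Ptgs2, which encodes cyclooxygenase 2, the inducible enzyme of prostaglandin synthesis, ranged from 3.07 to 4.52 FPKM under noise alone (median 3.37) and from 1.58 to 2.84 with brimonidine (median 2.17). The groups did not overlap, as in 0.0382% of the genes tested with the brimonidine group lower, and controls 1, 2 and 3 had 1.69, 1.61 and 5.30. Its log2 fold change was -0.54 (95% interval -0.74 to -0.34, adjusted p = 0.172, limma; exact permutation p = 0.000583), and NE 6, at 3.23, was not among its high libraries. With array weights the adjusted p of Ptgs2 was 0.0394.

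The other lower members of the list were Nfkbiz, Tnfaip3, Nfkbia, Nfkbie, Nfkb2 and Sele. Nfkbiz, which encodes a nuclear protein of the IκB family, ranged from 15.0 to 24.8 FPKM under noise alone (median 17.8) and from 12.2 to 15.2 with brimonidine (median 14.6), at a log2 fold change of -0.35 (exact permutation p = 0.00175). Tnfaip3, which encodes the deubiquitinase A20, ranged from 6.65 to 13.3 (median 9.39) and from 5.14 to 8.42 (median 5.80), at a log2 fold change of -0.47 (exact permutation p = 0.0111). Nfkbia, Nfkbie and Nfkb2 had log2 fold changes of -0.28, -0.16 and -0.14, and the endothelial selectin gene Sele had -0.23. NE 6 was the highest NE library for Il1b, Nfkbiz, Tnfaip3 and Nfkbia, and without it the log2 fold changes of Nfkbiz, Tnfaip3 and Nfkbia were -0.28, -0.39 and -0.19, of which Nfkbia no longer passed. Control 3 lay above the brimonidine range for Il1b, Nfkbiz, Tnfaip3 and Nfkbia, at 183, 35.6, 29.9 and 175 FPKM. The 2 higher genes were Irak4 and Vcam1, each with a log2 fold change of 0.12.

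Among the chemokines, 4 neutrophil attractants were lower at the unadjusted threshold. Cxcl1 ranged from 1.63 to 14.1 FPKM under noise alone (median 4.51) and from 1.04 to 2.55 with brimonidine (median 2.11), at a log2 fold change of -0.81 (exact permutation p = 0.0198). Cxcl2 ranged from 18.4 to 133 (median 34.8) and from 13.1 to 30.6 (median 21.5), at a log2 fold change of -0.91 (exact permutation p = 0.0175). Cxcl3 and Cxcl5 had log2 fold changes of -0.66 and -0.59. NE 6 was the highest of the 14 libraries for Cxcl1, Cxcl2 and Cxcl3 and for the macrophage chemokine Ccl4, at 14.1, 133, 12.3 and 85.0 FPKM. Without it their log2 fold changes were -0.56, -0.62, -0.54 and -0.41, and Ccl4 no longer passed. For Ccr7, Ccr3 and Irak4, in which NE 6 was the lowest NE library, the log2 fold changes without it were -0.33, 0.58 and 0.10. Ccl11, the eosinophil attractant eotaxin, ranged from 1.36 to 3.97 under noise alone (median 2.68) and from 1.18 to 1.77 with brimonidine (median 1.49), at a log2 fold change of -0.52 (exact permutation p = 0.00932). Cxcl10, Ccr7 and Ccl7 had log2 fold changes of -0.47, -0.28 and -0.52. Cd14, the endotoxin co-receptor of monocytes and activated neutrophils, ranged from 58.7 to 134 under noise alone and from 35.9 to 78.7 with brimonidine, at a log2 fold change of -0.71 (exact permutation p = 0.00641) and -0.60 without NE 6, the highest NE library for it.

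The count of lower early response genes depended on single libraries. Of 22 immediate early genes tested, 5 were lower (Egr2, Maff, Jun, Btg2 and Junb, 22.7% against 2.46% of all genes tested) and 0 higher, with 19 of 22 log2 fold changes below 0 and a median of -0.15. The count of lower genes ran from 0, without NE 5, to 7 with single libraries left out. It was 3 without NE 3, NE 4 or brimonidine 5, 2 without NE 6 or brimonidine 2, and 1 without NE 2, brimonidine 4 or brimonidine 6. Of 18 glucocorticoid-responsive genes, 4 were lower (Cdkn1a, Angptl4, Zbtb16 and Nfkbia, 22.2%), and 2 without NE 4 or NE 7. Interferon-stimulated genes had 2 of 45 lower, Gbp5 and Gbp3, a share of 4.44%, near the 2.46% of all genes tested. Without NE 6, 10 of the 45 were lower, without NE 4 it was 5, and without NE 2, NE 5 or brimonidine 1, 4, 5 or 6 it was 1.

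**Figure D3:**
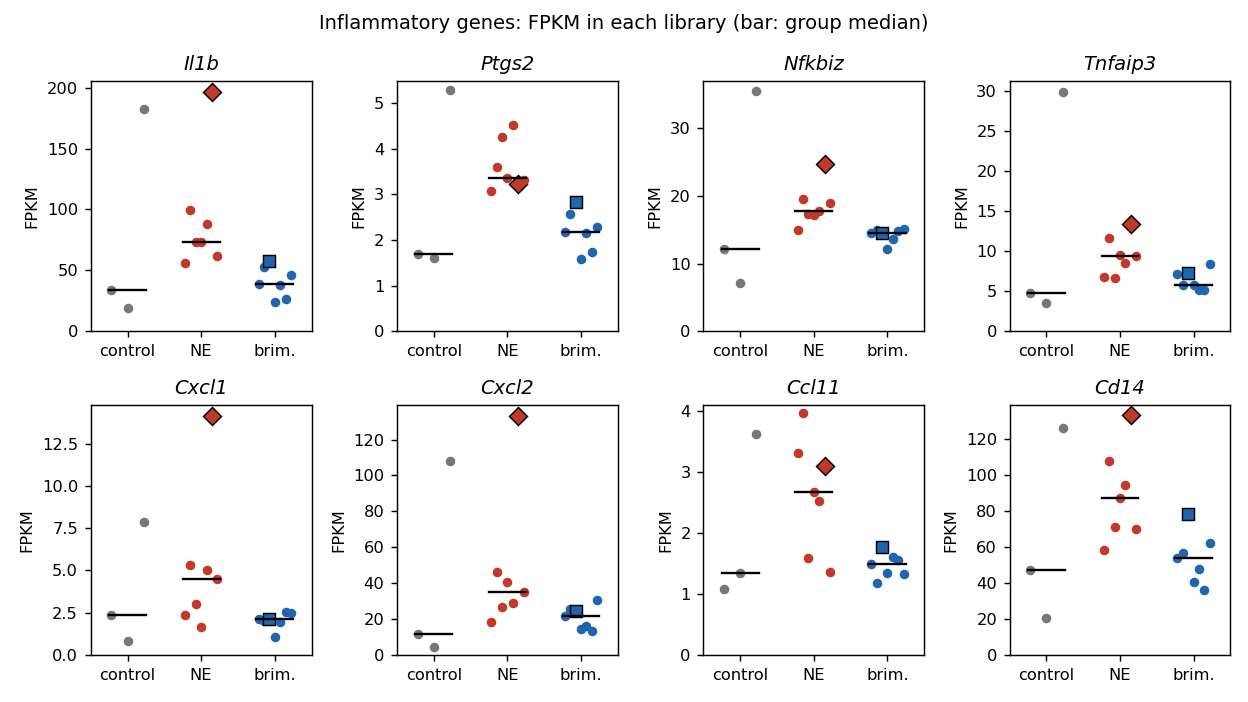
FPKM of 8 inflammatory genes in each library of the control, NE and brimonidine groups, with a bar at the group median, a diamond for NE 6 and a square for brimonidine 3. NE 6 is the highest NE library for Il1b (197), Cxcl1 (14.1) and Cxcl2 (133), while for Ptgs2, where NE 6 is at 3.23, all 7 brimonidine libraries lie below all 7 NE libraries.

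Genes of monocytes, macrophages and eosinophils included several higher ones. Of 34 genes tested of macrophages, monocytes and CSF1 receptor ligands, 4 were higher (11.8%, against 3.30%) and 1, Cd14, was lower. Among the 34, 27 had a log2 fold change above 0. Il34, a ligand of the CSF1 receptor, ranged from 2.16 to 3.14 FPKM under noise alone (median 3.00) and from 3.37 to 4.87 with brimonidine (median 3.88). The groups did not overlap, as in 0.102% of the genes tested with the brimonidine group higher (log2 fold change 0.37, 95% interval 0.21 to 0.53, adjusted p = 0.198, limma; exact permutation p = 0.000583). Ccr2, the chemokine receptor of inflammatory monocytes, ranged from 41.9 to 54.6 and from 52.0 to 58.2, at a log2 fold change of 0.18 (exact permutation p = 0.00583). F13a1 and Adgre1, a surface marker gene of mature macrophages, had log2 fold changes of 0.28 and 0.24. Ccr3, the receptor for eotaxin on eosinophils, ranged from 1.72 to 2.90 under noise alone (median 2.21) and from 2.62 to 5.74 with brimonidine (median 4.00), at a log2 fold change of 0.62 (95% interval 0.37 to 0.87, adjusted p = 0.172, limma; exact permutation p = 0.00117). With Siglecf at 0.11 it made 2 of 22 eosinophil, basophil and mast cell genes higher (9.09%, against 3.30%), a number that was 4 without brimonidine 4 and 1 without NE 2, 3, 6 or 7 or brimonidine 2, 3 or 6. The eosinophil granule genes Epx, Prg2 and Prg3 had log2 fold changes of -0.14, -0.11 and -0.11 and did not pass.

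Immunoglobulin variable genes made up 15 of the 16 genes with a 2-fold change of FPKM + 1 at the unadjusted threshold. They spread widely between libraries of one group. Of 101 heavy chain variable genes tested, 13 were lower (12.9%, against 2.46% of all genes tested) and 0 higher, with a median log2 fold change of -0.34, and of 97 kappa variable genes 9 were lower (9.28%) and 4 higher (4.12%, against 3.30%), also with a median of -0.34. Without the genes that entered through one group alone, 12 of 98 heavy chain genes were lower (12.2%), and 9 of 90 kappa genes were lower (10.0%) and 2 higher (2.22%), against 2.34% and 3.23% of all genes so treated. The Ighv1 family held 6 of the 13 lower heavy chain genes and 52 of the 101 tested. The Igkv4 family held 4 of the 9 lower kappa genes, 2 of the 4 higher ones and 27 of the 97 tested. Each variable gene marks the B-lineage clones that use it, and many are near-identical to their neighbours, so that the split of reads among them is uncertain. The median SD of log2(FPKM + 1) among heavy chain variable genes was 0.94 under noise alone and 0.76 with brimonidine, against 0.15 and 0.13 over all genes tested. Without NE 6 or without NE 7, 15 kappa genes were lower. Without NE 2 it was 6, and the kappa median was -0.22.

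Ighv1-52 ranged from 162 to 643 FPKM under noise alone (median 418) and from 57.7 to 184 with brimonidine (median 124), where only brimonidine 3 and brimonidine 7 lay above NE 6, the lowest NE library. The log2 fold change was -1.64 (95% interval -2.27 to -1.01, adjusted p = 0.172, limma; exact permutation p = 0.00175), and the adjusted p was 0.0295 without both NE 6 and brimonidine 3. Igkv2-112 had the largest fold change at the unadjusted threshold, -2.02 on the log2 scale, and ranged from 3.86 to 123 FPKM under noise alone and from 2.13 to 12.8 with brimonidine. Igkv12-41 and Igkv9-120 had log2 fold changes of -1.29 and -1.08. In the other direction Igkv3-9 ranged from 0.159 to 9.59 and from 1.24 to 44.9, at a log2 fold change of 1.70 (95% interval 0.37 to 3.03, exact permutation p = 0.0291).

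The constant regions and the plasma cell genes were mostly below 0 on the log2 fold change scale, and NE 2 was the highest NE library for Igkc, Ighg2b, Ighg2c, Sdc1, Irf4 and Pou2af1. Igkc, the kappa constant gene, ranged from 5310 to 17269 FPKM under noise alone (median 10679) and from 5422 to 9241 with brimonidine (median 7722), at a log2 fold change of -0.44 that did not pass (exact permutation p = 0.0822). Of 13 constant region genes, 2 were lower (Ighg2b and Ighg2c, 15.4% against 2.46% of all genes tested) and 1 was higher (Ighd, the gene of IgD on naive B cells, log2 fold change 0.58). Of 20 plasma cell genes, 4 were lower (Sdc1, Fkbp11, Pou2af1 and Irf4, 20%) and 19 had a log2 fold change below 0. That count was 1 without NE 1, 2 or 5 or brimonidine 1, 5 or 7, it was 2 without NE 3, NE 4 or brimonidine 4, and it was 11 without NE 6 or without NE 7. The count of constant region genes was 1 without NE 2, 4 or 5 or brimonidine 1, 2, 5 or 6, it was 4 without NE 6 and 6 without NE 7. The SD between libraries was larger in the NE group for 95% of the plasma cell genes, where it was larger in the NE group for 58.6% of all genes tested.

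Among genes of B-cell precursors, 6 of 20 were lower (30.0%, against 2.46% of all genes tested) and 1, Myb, was higher (5.00%, against 3.30%). Il2ra, the α chain of the interleukin 2 receptor, ranged from 10.7 to 28.4 FPKM under noise alone (median 18.2) and from 7.69 to 14.1 with brimonidine (median 12.5), at a log2 fold change of -0.63 (limma adjusted p = 0.603; exact permutation p = 0.00758). Vpreb3, Vpreb1, Dntt and Blnk, genes of the pre-B-cell receptor and its assembly and signaling, had log2 fold changes of -0.47, -0.31, -0.29 and -0.26. Erg had -0.28. Vpreb1 entered the test only through the NE libraries, and without the 4 genes that entered through one group alone 5 of 16 were lower (31.2%, against 2.34%). Without NE 6, 10 of the 20 were lower. In the list of mature B-cell genes, 2 of 19 were higher (10.5%, against 3.30%) and 0 lower, with a median log2 fold change of 0.0019. The number higher ran from 1 to 3 with single libraries left out, and 2 were lower without NE 6.

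Of the α2 receptor genes, the targets of brimonidine, only Adra2a passed the filter. Adra2a ranged from 2.16 to 3.61 FPKM under noise alone (median 2.49) and from 1.95 to 2.96 with brimonidine (median 2.50), at a log2 fold change of -0.10 (95% interval -0.31 to 0.11, adjusted p = 0.929, limma; exact permutation p = 0.335). With single libraries left out the log2 fold change of Adra2a ran from -0.14 to -0.05. Adra2b lay between 0.0138 and 0.0854 FPKM over the 14 libraries, which is 1 to 6 fragments, and a difference was not detectable at this depth. Adra2c, which was under the filter, ranged from 0.508 to 0.845 FPKM under noise alone (median 0.678) and from 0.451 to 0.664 with brimonidine (median 0.524), on 28 to 51 fragments a library. All 7 brimonidine libraries lay below the NE mean of 0.679, although the groups overlapped, and with no filter on low values its log2 fold change was -0.12 (95% interval -0.24 to -0.0054, adjusted p = 0.898, limma; exact permutation p = 0.0274). Of 29 genes of adrenergic receptors, Gi and the cAMP path tested, 4 were higher (Gnaz, Prkar2b, Creb1 and Gnai3) and 1 was lower, shares of 13.8% and 3.45% against 3.30% and 2.46% of all genes tested, with a median log2 fold change of 0.02. The 4 differences lay between 0.10 and 0.21 on the log2 scale, and the number was 2 without NE 5, NE 6 or brimonidine 4, 1 without NE 2 and 0 without brimonidine 6. The lower gene was Pde4b, a phosphodiesterase that degrades cAMP, which ranged from 3.93 to 5.51 FPKM under noise alone (median 4.63) and from 3.17 to 4.17 with brimonidine (median 3.73), at a log2 fold change of -0.27 (95% interval -0.42 to -0.12, adjusted p = 0.485, limma; exact permutation p = 0.00175).

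None of 19 genes of the glutamate–glutamine cycle and of glutamate transport passed the unadjusted threshold of limma with all libraries. The 95% interval of each lay inside a 2-fold change of FPKM + 1. Without NE 6, 1 was higher and 1 lower, without brimonidine 7 it was 1 lower, and with quantile normalization 1 higher. Glul, which encodes glutamine synthetase, ranged from 92.0 to 128 FPKM under noise alone (median 109) and from 103 to 132 with brimonidine (median 117), at a log2 fold change of 0.11 (95% interval -0.06 to 0.28, exact permutation p = 0.202). The vesicular transporter genes Slc17a6 and Slc17a7 had -0.25 (-0.61 to 0.11) and -0.09 (-0.49 to 0.31). With single libraries left out, Slc17a6 ran from -0.33 to -0.13. Slc17a8, the transporter gene of inner hair cells, was under the filter and ranged from 0.435 to 0.873 FPKM under noise alone and from 0.573 to 0.776 with brimonidine. Its log2 fold change with no filter was -0.02 (exact permutation p = 0.717). Slc1a3, the glial glutamate transporter EAAT1, had 0.16 (-0.11 to 0.42) with all libraries and 0.05 without brimonidine 5, in which Slc1a3 stood at 10.1 FPKM against 5.41 to 6.37 in the other 6 brimonidine libraries. The part of the cerebellar genes of brimonidine 5 in that value was not tested. Mapk3, the gene of the kinase ERK1, had 0.01 (-0.12 to 0.14), and none of 17 genes tested in a list of ERK pathway kinases and genes that ERK signaling induces passed with all libraries. Without NE 1, 1 of them was higher and 1 lower, and without brimonidine 4 it was 1 higher.

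**Figure D4:**
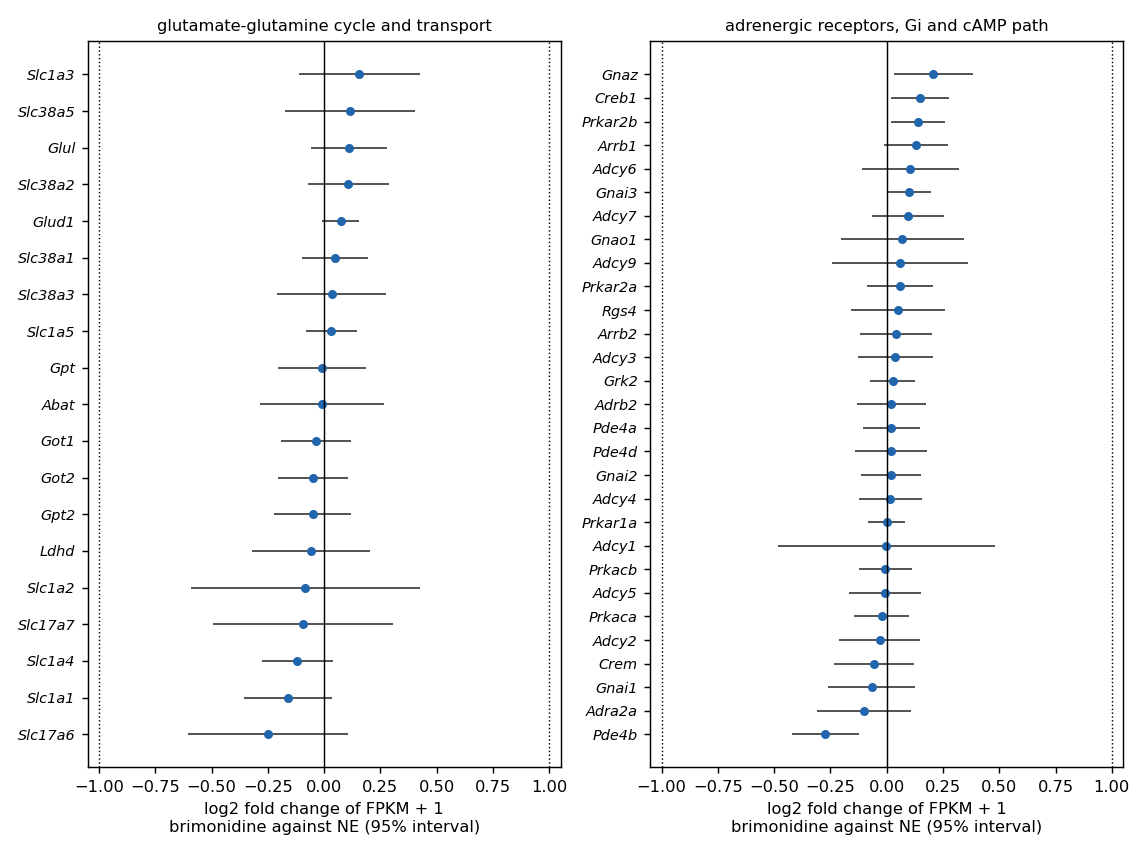
Log2 fold change of FPKM + 1, brimonidine against NE, with its 95% interval (lines) for 19 glutamate genes and the 29 adrenergic and cAMP genes tested, and dotted lines at a 2-fold change. Every interval lies between the dotted lines, and Pde4b at -0.27 is the lowest of the adrenergic genes.

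In the lists of cochlear cell types, with all libraries, at most 1 gene passed the unadjusted threshold in a direction, which made shares of 0% to 5.56% higher and 0% to 4.17% lower, near the 3.30% and 2.46% of all genes tested. Of 18 hair cell genes tested 1 was higher, Tmc1 of the transduction channel, which ranged from 0.698 to 1.00 FPKM under noise alone and from 0.876 to 1.42 with brimonidine at a log2 fold change of 0.18 and entered the test only through the group in which it was high. The other 17 hair cell genes tested did not pass, and 13 of the 31 hair cell genes in the file were below the filter. Of 24 supporting cell and epithelial genes, Lfng was higher and Sox2 lower, at 0.17 and -0.21. None of 23 genes of the stria vascularis passed with all libraries, and of 28 spiral ganglion genes 1 did, Thy1, which was lower at -0.26. Of 24 myelin genes 1 passed, Egr2, at -0.18. The 95% intervals of all the genes tested in these 5 lists lay inside a 2-fold change of FPKM + 1. Each of the calls was lost with at least 1 library left out. Other calls were gained in the same way. Without NE 5, 3 supporting cell and epithelial genes and 2 hair cell genes were higher, without NE 1, 3 spiral ganglion genes were lower, and of the stria genes 2 were lower without NE 1 or NE 4 and 2 higher without NE 7. Single stria genes were also higher without NE 3, NE 5 or brimonidine 5 or 6 and lower without NE 6 or brimonidine 5, 1 hair cell gene was lower without NE 6 or brimonidine 4 or 5, and 1 myelin gene was higher without brimonidine 6.

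**Figure D5:**
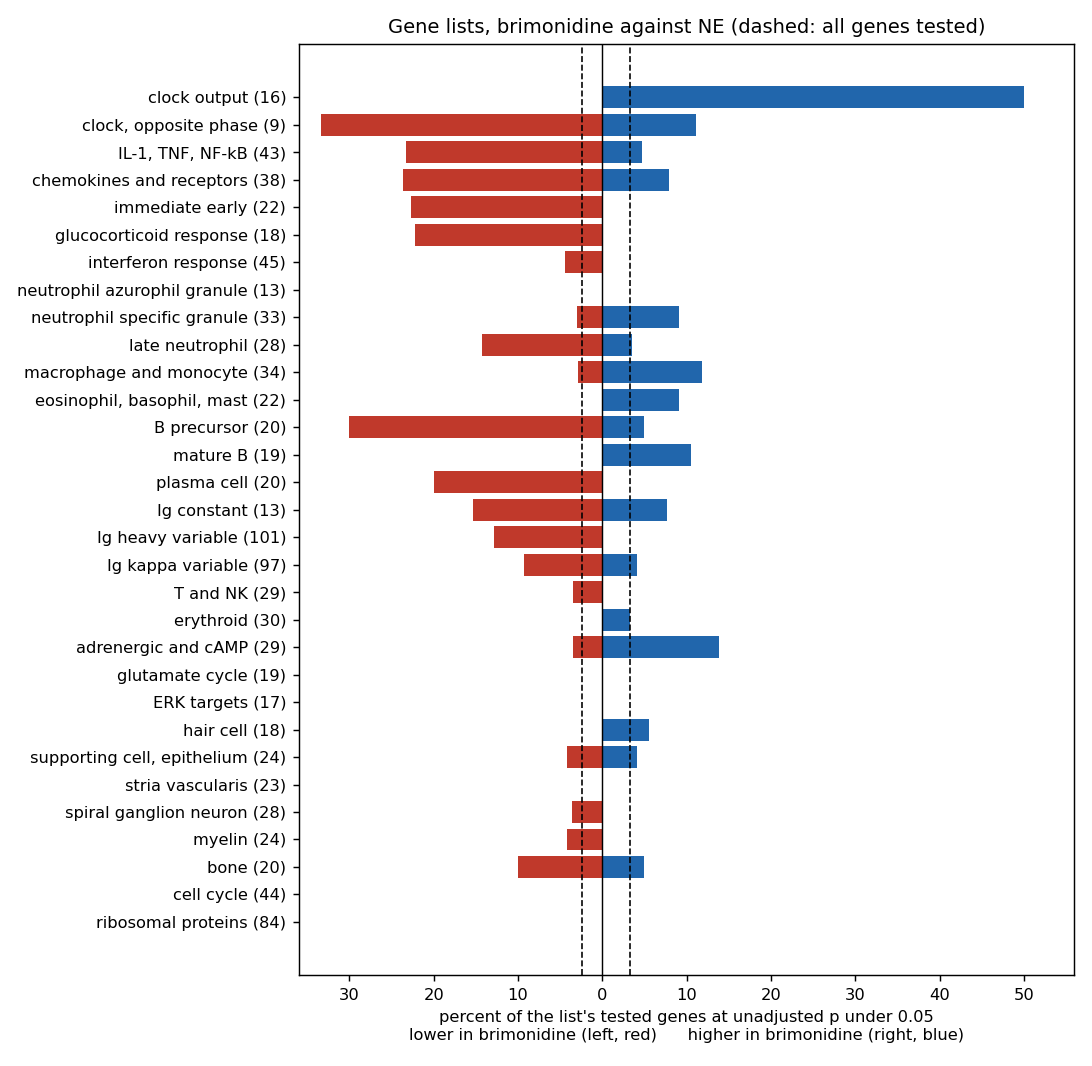
Share of each list's tested genes (number in brackets) that were lower (red, left) or higher (blue, right) in the brimonidine group at an unadjusted limma p under 0.05, with dashed lines at the shares of all genes tested, 2.46% lower and 3.30% higher. The clock output list reaches 50.0% on the higher side, and 23.3% of the IL-1, TNF and NF-κB list and 23.7% of the chemokine list are on the lower side.

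Other genes with small p had no common list. Gdf15, a stress-induced cytokine, ranged from 1.20 to 2.23 FPKM under noise alone (median 1.48) and from 2.02 to 3.85 with brimonidine (median 3.13), at a log2 fold change of 0.61 (95% interval 0.37 to 0.86, adjusted p = 0.172, limma; exact permutation p = 0.00117). Sult1e1, an estrogen sulfotransferase, ranged from 0.321 to 0.959 and from 1.08 to 1.61, and Lpar2, a lysophosphatidic acid receptor, from 2.02 to 2.72 and from 2.74 to 3.13. Neither overlapped between groups, and their log2 fold changes were 0.51 and 0.27, but Sult1e1 stayed under 1 FPKM in every NE library and so entered the test only through the group in which it was high. Pxmp2, a peroxisomal membrane channel, did not overlap either (0.33), while Exoc3l2 at 0.36 and the tetraspanin gene Tspan4 at 0.31 overlapped. Exoc3l2 had an adjusted p of 0.0230 without NE 5 and 0.172 with all libraries (limma). The small nucleolar RNA gene Snora41, on 0 to 8 fragments a library, had a log2 fold change of 0.83 and likewise entered only through the brimonidine libraries.

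On the lower side, Klf10, a transcription factor induced by TGF-β, ranged from 17.0 to 18.2 FPKM under noise alone and from 14.0 to 16.7 with brimonidine, with no overlap and a log2 fold change of -0.20 (limma adjusted p = 0.262; exact permutation p = 0.000583). Kcnj8, a subunit of KATP channels found in pericytes, ranged from 3.13 to 4.95 and from 2.05 to 3.21, at a log2 fold change of -0.44 (exact permutation p = 0.00117). Pitx1 and Sprr2a3 had log2 fold changes of -0.44 and -0.91. Only brimonidine 1 reached 1 FPKM for Pitx1 in its group, so Pitx1 entered the test only through the NE libraries, and Sprr2a3 has near-identical copies, so its value is uncertain.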

How the data were processed

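Total RNA of 17 mouse cochleae, 1 mouse a library, was made into stranded mRNA libraries and sequenced by the authors. The submitters' processing notes list Trimmomatic, HISAT2, Cufflinks, HTSeq and mm10, with versions not given in the sources used here, and the study tested differences with DESeq2. The deposited FPKM values were made by the authors for 35285 genes, so no count test was the main test. Per gene, FPKM came out as whole fragments in every library, to within 0.05 of a fragment or 0.01% of the count where that is more, for 93.0% of genes above 0 at GENCODE M21 exon lengths and for 97.5% once lengths were also solved from the values, and voom was run on those as an alternative.

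Values were tested as log2(FPKM + 1) with limma 3.58.1 (trend, R 4.3.3) for genes reaching 1 FPKM in 3 or more of the 14 libraries, adjusted by Benjamini-Hochberg over all of them. Thresholds were 0.05 and 1 on the log2 scale, and 95% intervals come from the same fit. Fold changes on this scale understate the change of low genes. Exact two-sided permutation tests over libraries were run for single genes. The fit was tested on simulated data with 200 genes changed by 2 on the log2 scale, of which 198 were recovered. There were 0 false calls, and smaller changes, such as most of those reported here, were not simulated. Replicates were taken as separate mice, because the methods name 17 mice and the series holds 17 libraries.

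Genes are named because the study names them for this comparison or measured their proteins, because they are among the 10 smallest p in a direction at a mean of 1 FPKM or more, or the 5 largest fold changes in a direction at the unadjusted threshold (predicted and Riken genes left out), or because they have the smallest p in a list. Genes named beside these as markers, or as list members that did not pass, were chosen after their values were seen. Members and lists were chosen with earlier results of these data known, and lists share members. Promoters come from the RefSeq table of GRCm38.p6. Alternatives changed the pseudocount to 0.1, the filter, the scaling, the model, library weights and the libraries, and the joint loss of NE 6 and brimonidine 3 was chosen after seeing the data. Some genes that the study measured by other means are not reported here.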

Additional observations from a re-analysis of the deposited data

Results flagged for a closer look

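Among 78 groups of 7 libraries examined for a single distant value on the log2 scale, 5 held one, and chance gives about 1 in 20 groups. Olfm4 was 33.4 FPKM in brimonidine 3, below the other 6 brimonidine libraries, which lay between 41.0 and 47.5. Dbp was 1.68 FPKM in NE 3, and Tef was 6.22 FPKM in NE 6, each the low end of the NE group. Slc1a3 was 10.1 FPKM in brimonidine 5, the library with the highest cerebellar genes. Lpar2 was 2.74 FPKM in brimonidine 6, the low end of the brimonidine group.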

How the results depend on the processing

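The number of genes past both thresholds was 0 with all libraries and 0 with any single library left out, and it was 1 with array weights and 1 without both NE 6 and brimonidine 3 (each time the heavy chain gene Ighv1-52). Genes past the adjusted threshold alone numbered 4 with array weights and 2 without both of those libraries, from 0 to 2 with single libraries left out, and 0 with no filter on low values, totals made equal, scaling by the median ratio, quantile normalization, all 17 libraries in 1 model, or voom. With no filter, 880 genes were higher, 712 lower and 33673 had intervals inside a 2-fold change, of 34125 tested. With all 17 libraries in 1 model, 257 were higher and 198 lower. Scaling by the median ratio gave 344 higher and 499 lower, so that 59.2% of the calls were lower in place of 42.7%. The cause was not tested. With single libraries left out, higher genes numbered 348 to 655, lower genes 273 to 536, and genes inside a 2-fold change 15169 to 15237. The log2 fold change of Mapk3 was -0.0081 with the median ratio and ran from -0.0121 to 0.058 with single libraries left out, below 0 without NE 1, NE 4 or brimonidine 3, and that of Slc17a7 ran from -0.21 to 0.0016, above 0 without brimonidine 2. Olfm4 kept its direction under the alternatives that tested it (voom did not, nor Tef, Cdkn1a and Klf10), with log2 fold changes from 0.49 to 0.58 and adjusted p from 0.000488 to 0.479 (limma). NE and brimonidine libraries share replicate numbers, and correlations of same-numbered libraries lay between -0.152 and 0.0843. The labels do not say what the numbers stand for, and these correlations cannot decide whether they pair the mice. A fit with the replicate number as a block gave 0 genes past the adjusted threshold, with 395 higher and 380 lower, and no library correlated best with its own number. Depth limited Adra2b, counted on 1 to 6 fragments. With all 17 libraries in 1 model, 7 heavy chain variable genes, 3 B-cell precursor genes, 1 immediate early gene and 0 constant region genes were lower, and 2 macrophage genes, 1 adrenergic gene and 1 specific granule gene were higher. With totals made equal, 1 adrenergic gene was higher, and with no filter 2 were lower in place of 1. Array weights gave 3 lower myelin genes and 1 lower stria gene, no filter 1 lower stria gene, and quantile normalization 1 higher stria gene.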

Other observations

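Of 30 erythroid genes tested, 28 had a log2 fold change above 0, with a median of 0.23, and 1 passed the unadjusted threshold, the transferrin receptor gene Tfrc (0.22), a share of 3.33% beside the 3.30% of all genes tested that were higher. Without NE 1, the highest NE library for Hbb-bs and Alas2, 16 of the 30 were higher, without NE 3 or brimonidine 7 it was 2, and without NE 2, 6 or 7 or brimonidine 1, 3, 5 or 6 it was 0. The SD between libraries was larger in the NE group for 93.3% of these genes.

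Of 44 cell cycle genes, 84 ribosomal protein genes, 15 mitochondrial genes, 28 antioxidant genes and 33 muscle genes tested, none passed the unadjusted threshold with all libraries (limma). With single libraries left out there were up to 2 higher cell cycle genes, 1 higher ribosomal protein gene, 1 higher and 2 lower antioxidant genes and 2 lower muscle genes. Of 15 osteoclast genes, Ctsk and Oscar were higher at 0.28 and 0.21, and Tnfsf11 was lower at -0.33, shares of 13.3% and 6.67% against 3.30% higher and 2.46% lower over all genes tested. Of 20 bone genes, Bglap and Bglap2 were lower at -0.44 and -0.42, and Omd was higher at 0.23, shares of 10.0% and 5.00%. The bone and osteoclast calls in both directions went to 0 with some libraries left out, except that of Tnfsf11.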
